A study of Mus musculus with 267 samples.

Results

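Basal H3K27ac was compared between untreated bone marrow-derived macrophages (BMDMs) of PWK and C57 mice at 45485 regions of open chromatin. A region belonged to the comparison when the centre of a C57 region and the centre of a PWK region lay within 500 bp of each other and each was the nearest to the other. These 45485 regions were 67.2% of the 67730 C57 regions and 75.6% of the 60162 PWK regions used here. A further 21167 regions lay in the C57 table only and 14206 in the PWK table only, with no centre of the other table within 500 bp. The median distance between matched centres was 28 bp, and 42648 matched centres (93.8%) lay within 100 bp.

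PWK/PhJ is a wild-derived inbred mouse strain and C57BL/6J is the laboratory strain whose genome is the mouse reference. Both groups held BMDMs of young adult female mice, grown from marrow in macrophage colony-stimulating factor and left without interleukin-4 (IL-4), with 2 H3K27ac ChIP-seq libraries in each group from separate biological replicates and the same antibody. The 4 basal libraries are part of a series of 267 samples. The 24 h libraries of both strains, 2 each, came from cells given IL-4 at 20 ng/mL for 24 h. They did not enter the basal levels or folds, but the limma test of the basal difference took its spread from them as well. BMDMs are cultured cells without the signals of a tissue, and a library averages over all cells of a culture, so that fewer cells carrying the mark and less of the mark in each cell cannot be told apart.

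H3K27ac is acetylation of lysine 27 on histone H3, which acetyltransferases such as p300 place on nucleosomes beside active enhancers and promoters. In macrophages the lineage factor PU.1 opens most enhancers together with partners such as C/EBP and AP-1 proteins, and a sequence variant in a motif of one of them can change acetylation nearby. H3K4me2 marks enhancers and promoters, H3K4me3 is strongest at active promoters, and RNA polymerase II (Pol II) is found at both.

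The comparison carries a mapping limit. The authors aligned the reads of each strain to a genome made from mm10 by putting in that strain's single-base variants and short insertions and deletions, and then moved positions back to mm10. Larger deletions, duplications and sequence that mm10 does not hold are not in such a genome, so a missing, extra or collapsed copy in PWK can raise or lower a count without any change in acetylation. C57 reads met the reference of their own strain. The matched regions had a reproducible ATAC-seq peak in both strains, which leaves out sequence wholly lost from either, and each window of 1000 bp was centred on the peak of its own strain. The effect of this limit on the counts was not tested.

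The largest differences are shown with their sequence, 200 bp of mm10 (plus strand) around the C57 centre, which is the C57 sequence. Capitals mark letters searched for PU.1 (AGGAAGT), AP-1 (TGANTCA), C/EBP (TTGCNNAA) and IRF motifs (GAAA, any 2 letters, GAAA) on either strand, and the PWK letters were not used here. No one of the 4 letter strings contains another, a match is a description of letters and not a bound site, and no match says only that these letters were not in the window. The regions are named by the nearest protein-coding start. The 3 with the highest ratio of PWK over C57 were chr5:35054700-35054899 upstream of Dok7, chr13:11895724-11895923 in an intron 211121 bp downstream of the start of Ryr2 and chr10:67503619-67503818 upstream of Egr2. The Ryr2 window held a PU.1 and an AP-1 match, the Egr2 window an IRF match and the Dok7 window none of the 4.
Dok7: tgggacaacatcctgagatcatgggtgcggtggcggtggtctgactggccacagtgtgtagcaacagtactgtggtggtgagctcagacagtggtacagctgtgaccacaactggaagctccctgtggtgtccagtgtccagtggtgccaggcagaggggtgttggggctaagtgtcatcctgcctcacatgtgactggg
Ryr2: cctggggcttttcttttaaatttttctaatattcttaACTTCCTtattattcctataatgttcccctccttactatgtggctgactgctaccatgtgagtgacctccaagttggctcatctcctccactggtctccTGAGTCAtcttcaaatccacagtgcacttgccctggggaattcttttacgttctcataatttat
Egr2: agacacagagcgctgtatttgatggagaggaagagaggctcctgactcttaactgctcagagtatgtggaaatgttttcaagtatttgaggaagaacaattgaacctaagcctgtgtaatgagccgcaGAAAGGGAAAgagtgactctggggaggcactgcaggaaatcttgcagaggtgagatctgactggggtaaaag

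In the C57 direction the regions shown were chr16:90199273-90199472 upstream of Sod1, chr9:121592085-121592284 in an intron 49381 bp from the start of Lyzl4 and chr11:85812579-85812778 in an intron 19872 bp upstream of the start of Tbx2, which ranked 1, 2 and 4 by the ratio of C57 over PWK. A PU.1 and a C/EBP match stood in the Tbx2 window, and none of the 4 motifs was found in the windows beside Sod1 and Lyzl4.
Sod1: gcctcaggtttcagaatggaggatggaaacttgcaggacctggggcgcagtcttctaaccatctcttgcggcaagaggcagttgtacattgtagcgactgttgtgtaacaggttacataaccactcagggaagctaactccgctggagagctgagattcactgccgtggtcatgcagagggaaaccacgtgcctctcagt
Lyzl4: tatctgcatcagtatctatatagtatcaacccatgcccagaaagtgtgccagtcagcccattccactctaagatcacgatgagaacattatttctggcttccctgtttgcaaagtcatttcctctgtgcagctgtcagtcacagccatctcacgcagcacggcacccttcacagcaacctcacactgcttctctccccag
Tbx2: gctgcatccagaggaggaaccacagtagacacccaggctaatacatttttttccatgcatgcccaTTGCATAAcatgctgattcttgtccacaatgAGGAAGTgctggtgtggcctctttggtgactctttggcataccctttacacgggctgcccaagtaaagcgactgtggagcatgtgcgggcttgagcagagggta

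All values are normalized tags, the reads of a library in a window of 1000 bp scaled to 10000000 reads of that library. The 4 basal libraries held 5825127 to 14739930 reads. PWK replicate 1 was the shallowest, so that 1 read was worth 1.72 normalized tags there against 0.678 to 0.783 in the other basal libraries. The share of reads inside the regions of the strain's own table was 65.4% and 59.6% in C57 and 53.5% and 55.2% in PWK. Across matched regions the log2 levels of replicates correlated at r = 0.936 in C57 and r = 0.914 in PWK, and libraries of different strains at r = 0.815 to 0.881, over 45485 regions that share each library's depth.

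A small majority of the regions with at least 16 normalized tags carried similar H3K27ac in both strains, and those that differed were more often higher in PWK. Of the 45485 matched regions, 34634 had a mean of at least 16 normalized tags in either strain, and 18103 of these (52.3%) differed less than 1.5-fold. The median log2 ratio of PWK over C57 at those 34634 regions was -0.03, with quartiles of -0.50 and 0.63. At 1.5-fold or more, 9065 regions (19.9% of all matched) were higher in PWK and 7466 (16.4%) in C57. At least 2-fold, 6042 regions (13.3%) were higher in PWK and 3732 (8.2%) in C57, and at least 4-fold 2221 (4.88%) and 818 (1.8%). Both PWK libraries lay above both C57 libraries at 12636 regions (27.8%) and below both at 10179 (22.4%). With 2 libraries a strain, such separation can also arise without a strain difference, so these shares are a description.

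**Figure D1:**
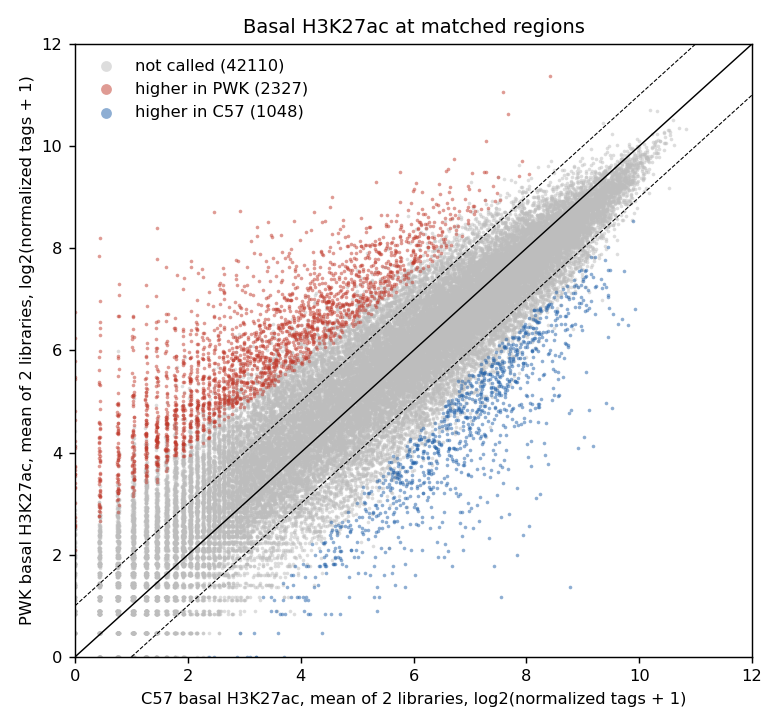
Mean basal H3K27ac of the 2 C57 libraries (x axis) against the 2 PWK libraries (y axis), each as log2(normalized tags + 1), at 45485 matched regions. The solid line marks equal levels, dashed lines a 2-fold difference on this scale, red points the 2327 regions called higher in PWK and blue points the 1048 called higher in C57.

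With limma on log2(normalized tags + 1) and Benjamini-Hochberg adjustment over all 45485 regions, 2327 regions (5.12%) were higher in PWK and 1048 (2.3%) were higher in C57 at an adjusted p under 0.05. In either direction together 7.42% were called. The spread in this fit came from the basal and 24 h H3K27ac libraries together, and the 4 basal libraries alone gave 1514 and 664. An unadjusted p under 0.05 was given to 9665 regions (21.2%). The smallest log2 fold that passed was 1.37 in the PWK direction and 1.31 in size in the C57 direction, so with 2 libraries a group, differences of less than about that size were not detectable by this test. The median log2 fold was 2.61 for regions higher in PWK and -2.32 for those higher in C57. Regions higher in PWK were mostly weak in C57, with a median of 8.44 normalized tags in C57 and 65.9 in PWK. Regions higher in C57 were strong there, with a median of 125 normalized tags in C57 and 22.04 in PWK. Leaving out PWK replicate 1, the shallow library, left 671 regions higher in PWK and 267 in C57, and leaving out C57 replicate 2 left 1215 and 389. Without C57 replicate 1 the counts were 1626 and 570, and without PWK replicate 2 they were 1160 and 755. In each of these fits no called region changed sign, which was fixed beforehand, because the strains' replicates overlapped at none of the called regions.

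Regions near gene starts were called less often than distal regions. Of 12432 regions within 1000 bp of a protein-coding start, 234 (1.88%) were called higher in PWK and 152 (1.22%) in C57. Between 10000 and 100000 bp from a start 1288 of 18926 regions (6.81%) were higher in PWK and 522 (2.76%) in C57, and beyond 100000 bp 326 of 3613 (9.02%) and 107 (2.96%). Levels differed as well, since the median was 108 normalized tags in C57 within 1000 bp of a start and 24.9 beyond 100000 bp. Among regions past 16 normalized tags, 12.5% differed at least 2-fold near a start and 41.7% beyond 100000 bp.

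The called share also varied with the level. Among the 11370 regions with the highest mean level, above 147 normalized tags, 4.16% were called and the median limma log2 fold was -0.21. Among 11369 regions between 13.1 and 50.3 normalized tags 11.8% were called and the median was 0.30. Among the 4549 regions above 301 normalized tags, 34 were called higher in PWK and 53 in C57. By chromosome the called share lay between 5.7% on chromosome 11 and 10.2% on chromosome 18 among autosomes, and was 2.26% of 753 regions on the X chromosome, where 12 were higher in PWK and 5 in C57.

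The regions were also grouped by the condition in which each strain had its ATAC-seq peak. At 2511 regions with a basal peak in PWK but a C57 peak only after IL-4, 265 (10.6%) were called higher in PWK and 34 (1.35%) in C57, and the median log2 fold was 0.33. At 4558 regions with a basal peak in C57 but a PWK peak only after IL-4, 193 (4.23%) were higher in PWK and 158 (3.47%) in C57, with a median of 0.08. At 36771 regions with a basal peak in both strains the shares were 4.8% and 2.3% and the median was 0.01.

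The regions with the largest differences, named next, were taken by rank of the ratio of group means. They had to reach 4-fold with replicates that did not overlap between strains, so their size and separation are what chose them. The region upstream of Dok7, an adaptor of the muscle receptor MuSK, held 0 and 0.71 normalized tags in the C57 libraries and 357 and 233 in the PWK libraries. The C57 libraries held a single read between them against 506 in PWK, a ratio of 783 with a counting interval of 140 to 30974 (95%, exact, counting error only). Its limma log2 fold was 7.79 ± 0.52 (SE, adjusted p = 1.15e-04). The start of Dok7 itself also stood apart, with 0 and 0.71 in C57 and 134 and 113 in PWK.

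The intronic region of Ryr2, the calcium release channel of heart muscle, held 0.68 and 0 normalized tags in C57 and 263 and 193 in PWK. Again 1 read stood against 400, a ratio of 619 (110 to 24498), and the log2 fold was 7.45 ± 0.57 (adjusted p = 1.55e-04). In NOD, another laboratory strain, the same region held 352 and 177 normalized tags, and in SPRET, a wild-derived strain of another species, 1.71 and 1.98. The NOD level was near that of PWK, and the SPRET level near that of C57.

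The region 34150 bp upstream of Egr2, a zinc-finger factor that IL-4 induces in macrophages, held 2.04 and 1.43 normalized tags in C57 and 333 and 341 in PWK. The 5 C57 reads stood against 629 in PWK, a ratio of 195 (82.9 to 601). At the start of Egr2 the levels overlapped, with 145 and 105 normalized tags in C57 and 172 and 132 in PWK (log2 fold 0.29 ± 0.44, adjusted p = 0.775). NOD had 0 and 2.38 normalized tags at the distal region and SPRET 9.4 and 10.54.

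Among the other 7 of the 10 largest differences in the PWK direction, 2 regions had no C57 read at all. The region nearest Chic2 held 149 and 63.4 normalized tags in PWK, at least 86.6-fold higher than a floor of 3 reads over both C57 libraries, and the region nearest Slc7a14 held 103 and 47.0, at least 61.9-fold higher. The remaining 5 lay nearest Gm26897, Rasal2 (a Ras GTPase-activating protein), Adcy3 (an adenylyl cyclase), Megf10 (an engulfment receptor) and Btbd8. At Megf10 the PWK libraries held 374 and 458 normalized tags and the C57 libraries 4.75 and 4.28. Rasal2 had the widest spread in PWK of these, 324 and 115 normalized tags. None of the 10 lay within 1000 bp of a start.

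**Figure D2:**
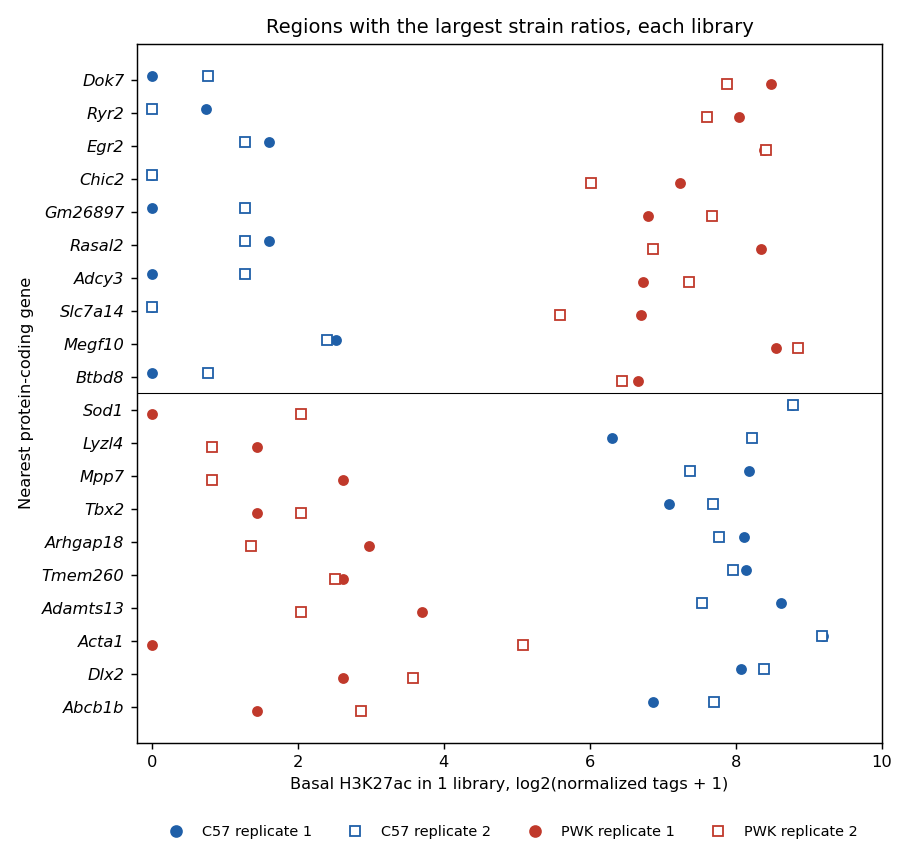
Basal H3K27ac in each of the 4 libraries, as log2(normalized tags + 1), at the 10 regions with the largest ratio of PWK over C57 (top) and of C57 over PWK (bottom), named by the nearest protein-coding gene. Blue is C57, red is PWK, filled circles are replicate 1 and open squares replicate 2. The 20 were chosen among regions where the libraries of the strains do not overlap.

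At gene starts the largest differences in the PWK direction were at Dok7, Upp1, Tmeff1, Ccn2 and Adra2c. Upp1 encodes uridine phosphorylase, and its start held 1.36 and 1.43 normalized tags in C57 and 196 and 114 in PWK. At Ccn2, connective tissue growth factor of fibroblasts, C57 held 2.04 and 0.71 and PWK 167 and 15.7 normalized tags. Its log2 fold of 4.53 ± 1.08 (adjusted p = 0.0253) was 2.87 (adjusted p = 0.239) without PWK replicate 1 and was 4.12 (adjusted p = 0.0823) without C57 replicate 2. Tmeff1 had a like spread in PWK, 167 and 32.9 normalized tags. Of the markers of other cells, Pdgfra of fibroblasts was at 10.3 and 3.13 normalized tags in PWK replicates 1 and 2, S100a8 of neutrophils at 232 and 97.1, and Col1a1 at 0 and 3.92. The part of other cells in the Ccn2 result was not tested.

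In the C57 direction the largest difference lay 21381 bp upstream of Sod1, the cytosolic superoxide dismutase. It held 434 and 439 normalized tags in the C57 libraries and 0 and 3.13 in the PWK libraries. The 1255 C57 reads stood against 4, a ratio of 203 (79.0 to 746), and the log2 fold was -7.75 ± 0.75 (adjusted p = 4.17e-04). The matched centres lay 213 bp apart. BALB, a laboratory strain, held 493 and 410 normalized tags there, and SPRET 24.8 and 43.5.

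The intronic region downstream of Lyzl4, a lysozyme-like gene, held 78.0 and 297 normalized tags in C57 and 1.72 and 0.78 in PWK. With 531 reads against 2, the ratio was 172 (47.3 to 1421). The C57 replicates differed from each other more here than at Sod1. The intronic region upstream of Tbx2, a T-box factor, held 135 and 205 normalized tags in C57 and 1.72 and 3.13 in PWK, and BALB and NOD held 154 to 281.

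The other 7 of the 10 lay nearest Mpp7, Arhgap18, Tmem260, Adamts13 (the protease of von Willebrand factor), Acta1 (skeletal muscle actin), Dlx2 (a homeobox factor) and Abcb1b (a multidrug efflux pump). Acta1 was the strongest, at 585 and 576 normalized tags in C57 and 0 and 32.9 in PWK. The Adamts13 region, 630 bp inside the gene, held 391 and 185 in C57 and 12.02 and 3.13 in PWK. It was also the largest difference at a gene start in the C57 direction.

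The next gene starts were C1qb, Slc16a7, Olfr552 and Galnt9. C1qb encodes a chain of complement C1q, which macrophages secrete, and its start held 742 and 719 normalized tags in C57 and 15.5 and 40.7 in PWK, a log2 fold of -4.80 ± 0.47 (adjusted p = 4.17e-04). BALB and NOD held 82.3 to 240 at this start. At Slc16a7, a monocarboxylate transporter, C57 held 308 and 357 and PWK 1.72 and 23.5 normalized tags. The call at Galnt9 (log2 fold -3.75, adjusted p = 0.0174) was lost without C57 replicate 2 (adjusted p = 0.0961), without PWK replicate 1 (adjusted p = 0.134) and without PWK replicate 2 (adjusted p = 0.0525).

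Called regions lay in groups along the chromosomes. Of 303 neighbouring pairs of called regions 1000 to 5000 bp apart, 303 had the same direction, as did 220 of 228 pairs (96.5%) at 5000 to 20000 bp and 122 of 135 (90.4%) at 20000 to 100000 bp. Joining called regions of 1 direction that followed each other within 100000 bp, 1429 of the 2327 regions higher in PWK fell into 483 runs and 459 of the 1048 higher in C57 into 180 runs. Of these, 59 runs in the PWK direction and 7 in the C57 direction held 5 or more regions. The runs were looked for after the calls were known and are a description.

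The longest run in the PWK direction covered chr6:88827653-89116156, with Abtb1 and Tpra1 as the nearest genes and 23 of its 36 matched regions called. Summed over those 23 windows, which can overlap, the C57 libraries held 724 and 622 normalized tags and the PWK libraries 4345 and 5611. The next, chr5:34955297-35279469, held the Dok7 and Adra2c regions named above and 15 of 28 regions called. Around Itpr1 and Bhlhe40, a transcription factor of activated macrophages, 13 of 16 regions were called, with 387 and 224 normalized tags in C57 and 1627 and 1810 in PWK. Around Dcstamp, which is needed for macrophage fusion, 9 of 10 were called. In each of these runs both PWK sums lay above both C57 sums, and the Dcstamp run held 475 and 645 in C57 against 2649 and 2168 in PWK.

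Among the runs in the C57 direction, at Slc16a7 5 of 6 regions were called, with 2147 and 2151 normalized tags in C57 and 139 and 545 in PWK. At Rhobtb1 and around Lyzl4, 5 of 5 were called in each.

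Some of the highest levels among called regions lay at Gm10800 and Sfi1, where the reference is known to collect reads of repeated sequence. A window beside Gm10800 on chromosome 2 held 423 and 296 normalized tags in C57 and 5847 and 4708 in PWK, the highest of all called regions. At Sfi1, 11 of 50 matched regions packed into 56152 bp were called higher in PWK, with summed levels of 881 and 938 in C57 and 6578 and 7014 in PWK. Copy number and acetylation were not told apart at such loci. The series holds basal input libraries of both strains (DNA taken before immunoprecipitation), which were not used here. Also among the highest were a window nearest Olfr159, with 111 and 294 in C57 and 1837 and 1330 in PWK, and a window nearest Trpm1. The latter held 1265 and 672 in C57 and 129 and 92.4 in PWK.

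Other measurements at the same regions leaned the same way. At 24 h of IL-4 the H3K27ac libraries, which had no part in the basal contrast but share its estimate of spread, gave a positive log2 fold at 2310 of the 2327 regions higher in PWK (99.3%) and a negative one at 1035 of the 1048 higher in C57 (98.8%). The median log2 fold at 24 h was 1.95 in the former and -1.60 in the latter, against 0.28 over all matched regions. Of all matched regions, 66.1% had a positive log2 fold at 24 h and 33.9% a negative one. Limma called 882 of the 2327 (37.9%, background 2.7% of all regions) and 277 of the 1048 (26.4%, background 0.712%) in the same direction. Over all regions the 24 h split was 1226 higher in PWK and 324 in C57 with library totals, and 602 and 442 when each library was scaled by its median ratio, a scaling that moved the median from 0.28 to -0.0046. Without PWK 24 h replicate 1 those counts were 4 and 3, without PWK 24 h replicate 2 they were 330 and 70, and without a C57 24 h replicate at most 523 and 101.

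The strain difference itself was not found to change with IL-4. The interaction of strain and IL-4 in limma called 0 regions, with an unadjusted p under 0.05 at 854 (1.88%). At Dok7 the upstream region held 11.03 and 13.8 normalized tags in C57 at 24 h and 649 and 306 in PWK, and the interaction log2 difference was -2.72 (adjusted p = 0.998). At Sod1 the C57 level was 88.3 and 146 at 24 h, below the basal 434 and 439, while PWK held 0 and 2.86. The design has 2 libraries a group, and a p that misses the threshold does not show that the effects were equal.

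H3K4me2, H3K4me3 and Pol II, measured in libraries of their own, were then read at the same regions. Among regions with higher H3K27ac in PWK the median log2 fold of PWK over C57 was 1.09 for H3K4me2, 0.95 for H3K4me3 and 1.35 for Pol II. Among those higher in C57 it was -0.65, -0.93 and -1.31, and over all matched regions it was 0.08, 0.01 and 0.15. Pol II was called higher in PWK at 874 of the 2327 (37.6%, background 3.72%) and higher in C57 at 446 of the 1048 (42.6%, background 1.87%). H3K4me2 was called in the same direction at 912 of the 2327 (39.2%, background 3.86%) and at 220 of the 1048 (background 1.05%). For H3K4me3 the counts were 358 (15.4%, background 1.76%) and 250 (23.9%, background 1.58%). Calls against the direction of H3K27ac were made by H3K4me2 at 1 and 2 regions, by Pol II at 0 and 8, and by H3K4me3 at 0 and 0.

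Scaling by the median ratio moved the Pol II calls over all regions from 1692 higher in PWK and 850 in C57 to 1356 and 1313, and those of H3K4me2 from 1754 and 478 to 1471 and 753. It lowered the median Pol II log2 fold over all regions from 0.15 to 0.01, and the medians within the classes were then 1.22 and -1.45. At least 1 of the 3 marks was called in the direction of H3K27ac at all but 854 of the regions higher in PWK and all but 468 of those higher in C57, and all 3 at 126 and 82. The counts over all regions also moved with single libraries. Without PWK Pol II replicate 2 they were 781 and 439, without PWK Pol II replicates 1 and 3 in turn 1074 and 1102 in the PWK direction, and without C57 Pol II replicate 2 or PWK Pol II replicate 3 559 and 541 in the C57 direction. Without a single H3K4me2 library of the 4 basal ones they were 673 to 1011 in the PWK direction and 163 to 311 in the C57 direction. For H3K4me3 they were 391 and 278 without C57 replicate 1, 463 and 320 without C57 replicate 2 and 432 in the PWK direction without PWK replicate 1.

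**Figure D3:**
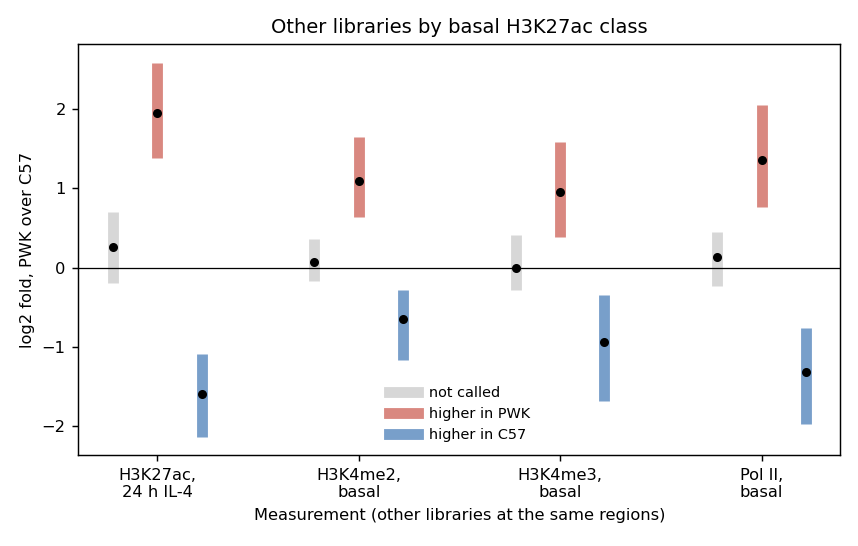
Log2 fold of PWK over C57 in 4 sets of libraries that were not the basal H3K27ac libraries, for regions not called (grey), higher in PWK (red) and higher in C57 (blue) by basal H3K27ac. Dots are medians and bars run between quartiles; for Pol II the medians were 0.13, 1.35 and -1.31.

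Single regions differed in which marks were called. At the distal Egr2 region H3K4me3 went from a mean of 0.61 normalized tags in C57 to 97.4 in PWK and Pol II from 1.16 to 67.8, while H3K4me2, already at 23.2 in C57, was 144 in PWK. At the Upp1 start H3K4me2 was at 99.0 and 131 (adjusted p = 0.865) and Pol II at 4.83 and 72.6 (adjusted p = 1.29e-05). At the C1qb start H3K4me3 was at 253 in C57 and 7.78 in PWK, and Pol II at 338 and 22.4. At the intronic Ryr2 region H3K4me2 was at 2.39 and 70.0 (adjusted p = 1.56e-15), and H3K4me3 was low in both, 0.61 and 2.64.

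Peaks of PU.1 and C/EBPβ, called by the authors in basal cells of each strain, were set beside the classes. PU.1 is the lineage factor of macrophages and C/EBPβ one of its partners. Of the regions higher in PWK, 53.5% were overlapped by a PU.1 peak of the C57 list and 78.8% by one of the PWK list. Of those higher in C57, 90.1% were overlapped by a C57 peak and 78.5% by a PWK peak, and over all matched regions the shares were 75.7% and 78.0%. A PU.1 peak in the PWK list alone was found at 27.1% of regions higher in PWK and 2.0% of those higher in C57. A peak in the C57 list alone was found at 1.76% and 13.5%.

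Read the other way, of 3566 regions with a PU.1 peak in the PWK list only, 631 (17.7%) were called higher in PWK and 21 (0.589%) in C57, and their median H3K27ac log2 fold was 0.83. Of 2529 with a peak in the C57 list only, 41 (1.62%) were higher in PWK and 142 (5.61%) in C57, with a median of -0.20. At the 31907 regions with a peak in both, the shares were 3.77% and 2.51%. Among the called regions, 1203 of those higher in PWK and 802 of those higher in C57 had a PU.1 peak in both lists.

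For C/EBPβ the lists differ in length, 18033 peaks in C57 and 32342 in PWK, so the share of PWK peaks is higher over all matched regions (41.7%) than that of C57 peaks (26.9%). At regions higher in PWK the shares were 19.8% for the C57 list and 58.6% for the PWK list. At regions higher in C57 they were 33.7% and 30.9%. A C/EBPβ peak in the C57 list alone stood at 10.2% of the latter, against 1.8% of all matched regions. Each list stands for a group and has no replicates, so no test was made.

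**Figure D4:**
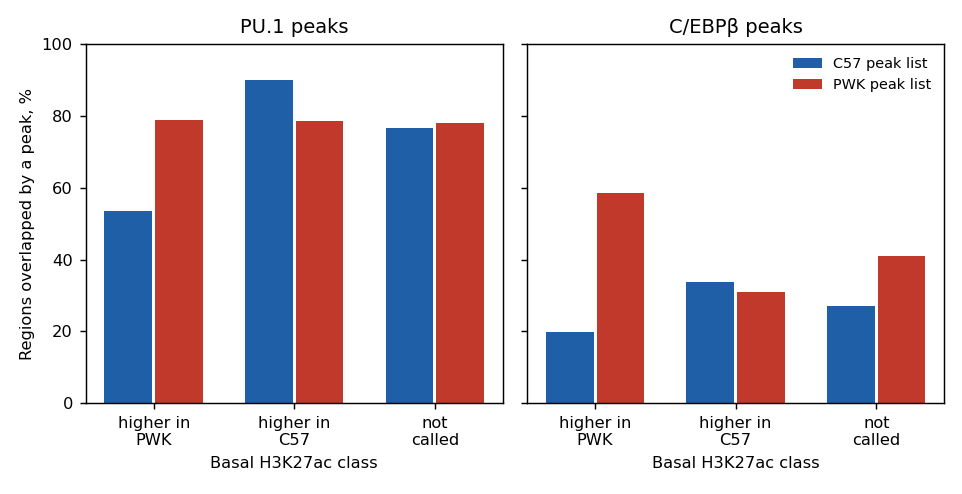
Share of regions (%) overlapped by a PU.1 peak (left) or C/EBPβ peak (right) of the C57 list (blue) or the PWK list (red), by basal H3K27ac class. At regions higher in PWK the C57 bars stand at 53.5% and 19.8% and the PWK bars at 78.8% and 58.6%.

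Motif letters in the mm10 sequence, 200 bp around the C57 centre, also differed between the classes. The PU.1 letters AGGAAGT were found in 20.5% of regions higher in PWK, 28.6% of those higher in C57 and 21.2% of all matched regions. The AP-1 letters TGANTCA were in 26.9%, 19.6% and 17.8%, and the C/EBP letters TTGCNNAA in 373 of 2327, 108 of 1048 (10.3%) and 11.4%. The IRF letters were rare, at 1.63%, 3.44% and 2.55%. Called regions lie more often away from gene starts. Beyond 1000 bp from a start, AP-1 stood at 28.6% in PWK-higher, 21.9% in C57-higher and 22.6% of all regions, and PU.1 in 461 of 2093 and at 30.2% and 25.7%. These shares describe the C57 letters only.

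The regions were then looked up in the BALB, NOD and SPRET tables of the series, 2 basal libraries a strain. A region of the NOD table lay within 500 bp of 1861 regions higher in PWK (80.0%), of the BALB table of 1514 (65.1%) and of the SPRET table of 1487 (63.9%). For all matched regions those shares were 91.3%, 84.2% and 74.6%. Where a region was there, the mean level in BALB was nearer on the log2 scale to C57 than to PWK at 85.1% of them, in NOD at 76.7% and in SPRET at 43.6%. For regions higher in C57, BALB was nearer to C57 at 88.8%, NOD at 91.2% and SPRET at 50.8%. At the 1067 regions higher in PWK with a region in all 3 tables, all 3 strains were nearer to C57 at 359 (33.6%) and all 3 nearer to PWK at 74 (6.94%). At 698 such regions higher in C57 the counts were 314 (45.0%) and 15 (2.15%). C57 and PWK levels chose the regions, so the nearness of another strain is a description. Each library was scaled by its own total, and each value came from the window of that strain's own region.

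Macrophage identity was checked at gene starts before gene groups were read. All 20 genes of the macrophage identity list had a matched region at a start, and their summed level was 9951 to 10731 normalized tags in C57 and 6410 to 7624 in PWK. Csf1r, the receptor that keeps macrophages alive, held 681 and 651 in C57 and 439 and 834 in PWK, so the strains overlapped. Of 18 markers of other cells, 12 had no matched region at a start, among them Cd3e, Ncr1, Ly6g, Hbb-bt and Epcam. The other 6 summed to 121 to 145 normalized tags in C57 and 218 to 333 in PWK, most of it at S100a8, which held 55.6 and 19.3 in C57 and 232 and 97.1 in PWK (adjusted p = 0.06, and 0.0252 without C57 replicate 1), and at Ms4a1, which held 82.8 and 94.8 against 85.8 and 107. The part of such cells in the results was not tested.

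Fcgr1, Mrc1 and C1qa of the macrophage list were lower in PWK. None of the 20 was higher, beside 234 (1.88%) and 152 (1.22%) of all regions at starts called in the PWK and C57 direction. C1qa, another C1q chain, held 218 and 369 normalized tags in C57 and 12.02 and 47.8 in PWK (log2 fold -3.50 ± 0.58, adjusted p = 0.00445). Fcgr1, the high-affinity receptor for antibody, held 685 and 643 in C57 and 87.6 and 224 in PWK (log2 fold -2.24, adjusted p = 0.0153). Mrc1, the mannose receptor, held 219 and 271 in C57 and 60.1 and 94.0 in PWK (log2 fold -1.68, adjusted p = 0.023). The call at Fcgr1 was lost without either C57 replicate (adjusted p = 0.0564 and 0.0541) and without PWK replicate 1 (adjusted p = 0.161). The call at Mrc1 was lost without C57 replicate 1 (0.0638 as adjusted p), C57 replicate 2 (0.139) and PWK replicate 1 (0.194), and in a fit of the 4 basal libraries alone (0.0522). At both genes the PWK libraries stayed below both C57 libraries. The median log2 fold of the list was -0.62, against -0.07 over all regions at starts.

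Interferon-stimulated genes had a log2 fold below 0 at each measured start, and none was called by limma without a replicate block. Of 24 genes, 19 had a matched region at a start, and at all 19 the log2 fold was below 0, from -2.49 at Isg15 to -0.64 at Usp18, with a median of -1.72. At 13 of them both PWK libraries lay below both C57 libraries (22.4% of all matched regions). Of the 19, 0 passed limma at an adjusted p under 0.05 and 11 had an unadjusted p under 0.05 (21.2% of all matched regions). The C57 replicates stood apart from each other here, with summed levels of 6903 and 2422 normalized tags against 1808 and 1088 in PWK. Without C57 replicate 1 the median log2 fold was -0.73, and without C57 replicate 2 it was -2.34. Isg15, a ubiquitin-like protein, held 210 and 67.0 in C57 and 42.9 and 9.4 in PWK (adjusted p = 0.119). Rtp4, a chaperone of receptors, held 940 and 356 in C57 and 196 and 55.6 in PWK (adjusted p = 0.146), and at both genes the strains did not overlap while each strain's own replicates lay far apart. DESeq2 on the recovered reads called Isg15 (adjusted p = 0.0227).

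The C57 replicates also lay apart at MHC genes. The 16 starts, of which Tap1 and Psmb9 share a region, summed to 5915 and 2700 normalized tags in C57 and 2182 and 2902 in PWK. None was called, and the median log2 fold of -0.80 became -0.16 without C57 replicate 1. H2-K1, a class I heavy chain, held 555 and 185 in C57 and 106 and 119 in PWK (log2 fold -1.50, adjusted p = 0.138), and passed without C57 replicate 2 (adjusted p = 0.0478) and with DESeq2 (adjusted p = 0.0176). H2-T23, a non-classical class I gene, held 294 and 142 in C57 and 51.5 and 121 in PWK.

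Among the polymorphic immune families, 15 of 35 annotated genes had a matched region at a start and 2 were called, both higher in C57 (1.22% of all regions at starts). Ifi204, a sensor of DNA, held 463 and 240 normalized tags in C57 and 36.1 and 27.4 in PWK (log2 fold -3.36 ± 0.56, adjusted p = 0.00454). Naip2, a receptor for bacterial secretion proteins, held 194 and 93.4 in C57 and 22.3 and 29.8 in PWK (log2 fold -2.34, adjusted p = 0.0115). Naip2 was no longer called without C57 replicate 1 (adjusted p = 0.0918) or without PWK replicate 1 (adjusted p = 0.0965). These genes have near copies, and reads could be shared or lost among them, so both values are uncertain. The other 20 had no matched region at a start.

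Of the pattern recognition receptors, 14 had a matched start and Tlr3, the receptor for double-stranded RNA, was the call (1.22% of all regions at starts), at 233 and 81.3 normalized tags in C57 and 25.8 and 37.6 in PWK (log2 fold -2.11, adjusted p = 0.0456). It was lost without C57 replicate 1 (adjusted p = 0.286), without PWK replicate 1 (0.255) without PWK replicate 2 (0.0924), with median-ratio scaling (0.0526) and in a fit of the 4 basal libraries alone (0.0684). Its centres lay 393 bp apart between the tables. At Tlr4, the receptor for lipopolysaccharide, levels were close, with 588 and 632 in C57 and 469 and 572 in PWK (adjusted p = 0.798).

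Of 13 Fc gamma and phagocytic receptors with a matched start, Fcgr1 was lower in PWK as above and Itgax, the CD11c integrin, was higher (1.22% and 1.88% of all regions at starts). Itgax held 75.3 and 60.6 normalized tags in C57 and 245 and 211 in PWK (log2 fold 1.74, adjusted p = 0.0454). Without any single library of the 4 it missed the threshold (adjusted p = 0.0983 to 0.235), although the strains did not overlap.

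Of 27 IL-4 pathway and response genes, 16 had a matched start and 2 were called in untreated cells, Mrc1 lower and Tmem26 higher in PWK, where 3.1% of all regions at starts were called in either direction. Tmem26, a membrane protein, held 6.78 and 2.85 normalized tags in C57 and 37.8 and 39.2 in PWK (log2 fold 2.85, adjusted p = 0.012), and missed the threshold without C57 replicate 2 (0.0632) and without PWK replicate 1 (0.0812) or 2 (0.0572). Stat6, the factor that carries the IL-4 signal, held 985 and 687 in C57 and 633 and 538 in PWK, and Il4ra, the receptor chain, 367 and 237 against 177 and 172, with neither called. Around the IL-4 genes 124 regions had one of them as the nearest start within 100000 bp, and 10 of these were higher in PWK and 4 in C57. They included 3 regions nearest Egr2 and 3 nearest Ccl17, a chemokine that attracts T cells, all 6 higher in PWK. The 4 higher in C57 included 3 regions nearest Mrc1. Over all matched regions within 100000 bp of a start 2001 of 41872 were higher in PWK and 941 in C57. In either direction 11.3% of the regions around IL-4 genes were called, against 7.03% of those 41872. By gene list this share ran from 0% around interferon-stimulated genes to 12.5% around housekeeping genes, so it was not particular to the IL-4 genes.

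Inflammatory, lysosomal, lipid and housekeeping genes had no called start by limma, beside 3.1% of all regions at starts. An unadjusted p under 0.05 was given to 5 inflammatory starts and 0 of the others, beside 21.2% of all matched regions. Of 18 inflammatory genes the largest changes were at Marco, a scavenger receptor, with 20.4 and 5.7 normalized tags in C57 and 1.72 and 0 in PWK (adjusted p = 0.0703), and at Ccl2, a monocyte chemokine, with 33.2 and 22.8 in C57 and 120 and 58.7 in PWK (adjusted p = 0.103). The list median was -0.23 and changed sign without C57 replicate 1 (0.43) and without PWK replicate 2 (0.33). The 19 lysosome starts had a median log2 fold of -0.18, with the largest change at Glb1, beta-galactosidase, of 877 and 645 in C57 and 426 and 373 in PWK (adjusted p = 0.264). The 16 cholesterol and lipid starts had a median of -0.23, and the transporter Abcg1 held 306 and 229 in C57 and 87.6 and 209 in PWK (adjusted p = 0.247). The 16 housekeeping starts ran from -0.60 at Tbp to 0.82 at Pgk1 with a median of -0.21, which was 0.12 without C57 replicate 1.

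**Figure D5:**
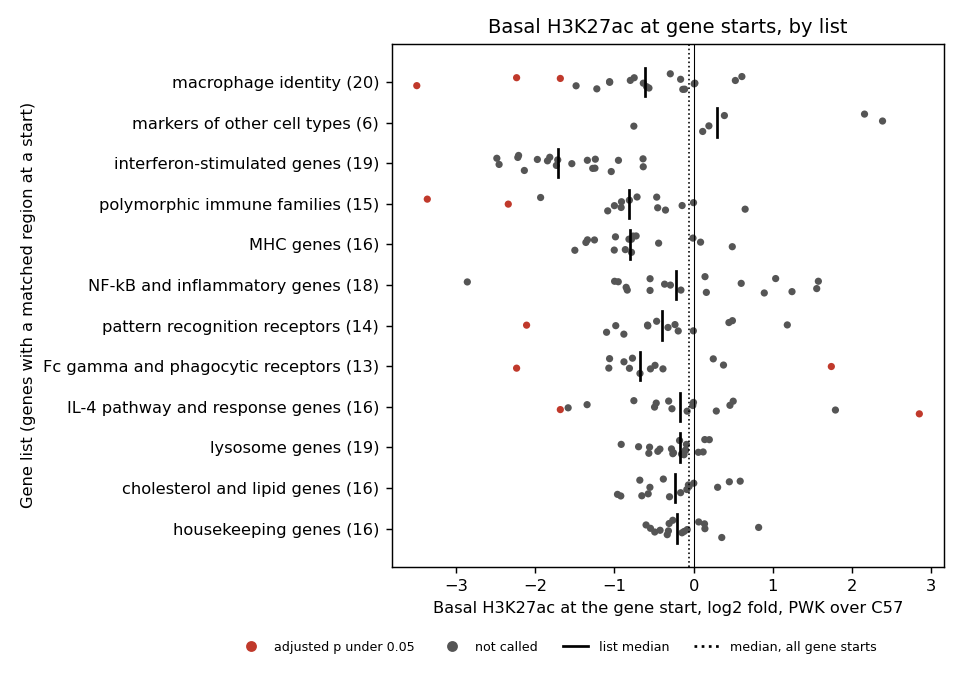
Log2 fold of basal H3K27ac, PWK over C57, at the gene start of each member of 12 gene lists, with list medians as bars and the median of all gene starts (-0.07) as a dotted line. Red points passed limma over all regions; the 19 interferon-stimulated genes all lie left of 0 and none is red.

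Regions of a single table were counted apart, since the other strain has no value there. The 21167 regions of the C57 table only were 31.3% of that table, and the 14206 of the PWK table only 23.6% of theirs. Most were weak, with a median of 5.93 normalized tags in C57 and 10.2 in PWK, against 44.4 and 50.7 at matched regions. At least 16 normalized tags were reached by 7062 (33.4%) of the C57 regions and 5599 (39.4%) of the PWK regions. They lay away from promoters, with 8.12% and 3.36% annotated as promoter against 22.2% of matched regions. An ATAC-seq peak found only after IL-4 accounted for 31.8% of the C57 regions and 33.6% of the PWK regions.

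PU.1 peaks covered these regions less often than matched ones. Of the PWK-table regions 65.7% were overlapped by a PU.1 peak of the PWK list and 44.1% by one of the C57 list. Of the C57-table regions the shares were 39.9% for the C57 list and 29.8% for the PWK list. C/EBPβ peaks of the PWK list covered 23.6% of the former and of the C57 list 6.36%, and of the C57-table regions 15.3% and 12.4%. None of the other 3 strain tables had a region within 500 bp of 41.7% of the C57 regions and 39.0% of the PWK regions, while all 3 had one near 2222 and 1438. In the PWK case 3343 (23.5%) had a region within 500 bp in the C57 time course table, where C57 held a median of 8.32 normalized tags and PWK 13.7.

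A region in 1 table only does not mean that the other strain lacked acetylation. The strongest C57-only region lay at the start of Sirpa, an inhibitory receptor of macrophages, with 2014 and 1316 normalized tags, and the strongest PWK-only region lay at Sirpa as well, with 1126 and 1103, the nearest centres of the other table being 688 and 532 bp away. At the next, C57-only regions at Flcn (1763 and 1081) and in an intron near Cerk (1468 and 1169) had PWK centres 540 and 538 bp away. PWK-only regions nearest Frmd8 (1145 and 1029) and in an intron near Lrp1 (1239 and 927) had C57 centres 786 and 647 bp away. At those nearest centres the other strain held 999 and 854 normalized tags at Sirpa, 1536 and 1091 at Flcn and 465 and 416 near Cerk in PWK, and 1592 and 1023 at Sirpa, 1172 and 1119 near Frmd8 and 675 and 889 near Lrp1 in C57. The next PWK-only region, upstream of Slc37a1 and looked up after its values were seen, held 848 and 1171, and there the nearest C57 centre lay 1792 bp away with 174 and 109 normalized tags. With more than 1000 bp to the nearest centre, 17883 regions were left in the C57 table only and 12660 in the PWK table only.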

How the data were processed

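H3K27ac, H3K4me2, H3K4me3 and Pol II ChIP-seq libraries of C57 and PWK BMDMs, basal and after 24 h of IL-4, and the basal PU.1 and C/EBPβ peak lists were used. Reads were mapped by the authors with Bowtie2 on strain genomes built from mm10, and after a shift of positions to mm10 coordinates HOMER counted tags in 1000 bp around reproducible ATAC-seq peaks. The deposited signal is tags scaled by the authors to 10000000 tags a library, as their file headers state. A library's values times its total gave whole reads within 0.1 read for 100% of values. The peak lists hold peaks kept by IDR between replicates, with the authors' deposited score, of which only positions entered.

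Rows on chrM and chrY (12 of the C57 table, 13 of the PWK table) were dropped. Regions were matched one-to-one by nearest centres within 500 bp. Each column kept its own library total as scale. Linear models by limma 3.58.1 (R 4.3.3), with an eBayes trend, were fitted to log2(normalized tags + 1) over 8 H3K27ac libraries in 4 groups, without a filter, and each other mark had a fit of its own. Fold changes on this scale understate those of low regions. The p-values rest on 2 libraries a group (4 and 3 for basal Pol II). The fold rule asked for 16 normalized tags in either group mean. Counting intervals are exact (Clopper-Pearson) on pooled reads. Alternatives were other pseudocounts, filters, scalings, matching distances and left-out libraries, and edgeR 4.0.16 and DESeq2 1.42.0 on the recovered reads. Fits were tested on simulated data.

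Gene starts were protein-coding starts of GENCODE vM21 (mm10), and 96.5% of 10088 regions that the files annotate as promoter lay within 1000 bp of one. Sequences are from RefSeq's GRCm38.p6. Named regions were those past 4-fold with replicates that did not overlap, by rank of the ratio of group means, 50000 bp apart. The first 10 in each direction, the first 5 at a start within 1000 bp, up to 4 called members of each gene list or else its 2 with the largest change, and the strongest regions of each table were named. Csf1r, Stat6, Il4ra, Tlr4, Col1a1, Ms4a1, Usp18, the Egr2 start and the runs were added after their values were seen. The comparison, the gene lists and the tests were chosen with earlier results of these data known. The BALB, NOD and SPRET tables and the C57 time course table served for look-ups at the same positions, and other files of the series were not used here. Items withheld from this text are not reported here.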

Additional observations from a re-analysis of the deposited data

Results flagged for a closer look

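At the start of Tmeff1, Pol II in the 4 C57 basal libraries was 2.14, 3.04, 5.62 and 23.7 normalized tags. The highest library stood apart from the others by 0.839 of the whole range, past Dixon's 95% limit. It was the single case among 29 regions tested, and chance gives about 1 in 20.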

How the results depend on the processing

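The counts by limma moved with the libraries used and with how the spread was estimated. The 4 basal libraries alone gave 1514 regions higher in PWK and 664 in C57, DESeq2 gave 2691 and 1655, and edgeR gave 2261 and 947 with library totals and 1837 and 981 with TMM. Leaving out single basal libraries gave 671 to 1626 and 267 to 755. Among 13 alternatives in which the same regions were followed (not the time course columns, which gave 2818 and 1070), 0 of the 3375 called regions took the opposite sign, and 878 (without PWK replicate 1) to 3375 (with the replicate block) were called again in the same direction. The basal replicates of the strains overlapped at none of the called regions. The sign was therefore fixed beforehand where a library was left out or the library-total scale was kept. Replicate numbers are shared between groups by label alone. With the number as a replicate block the basal counts were 6276 and 3824, the 24 h counts 6113 and 1831, and the interaction count 13, and 17 of the 19 starts of interferon-stimulated genes were called higher in C57. Deviations of same-numbered libraries correlated at 0.347 between the basal groups, 0.36 between the 24 h groups, and 0.525 and 0.469 between basal and 24 h within C57 and PWK. At 24 h the median-ratio scaling gave 602 regions higher in PWK, and leaving out single 24 h libraries gave 4 to 523 and 3 to 101. The left-out libraries and the block at 24 h, the left-out libraries of the other marks and the counts within gene lists under the block were chosen after seeing the data. Median-ratio scaling gave 753 regions with higher H3K4me2 and 1313 with higher Pol II in C57. Without single libraries the counts higher in PWK and in C57 were 673 to 1011 and 163 to 311 for H3K4me2, 391 to 654 and 278 to 567 for H3K4me3, and 781 to 2256 and 439 to 884 for Pol II. The fold rule gave 9065 and 7466 regions at 1.5-fold, 2221 and 818 at 4-fold, and 5857 to 6906 and 3640 to 5714 without single libraries, the last without PWK replicate 2. The interaction count was 0 without each library in turn. With peak centres required within 100 bp, PU.1 peaks of the C57 and PWK lists stood at 42.8% and 63.3% of regions higher in PWK and 75.1% and 68.8% of those higher in C57, and C/EBPβ peaks at 16.2% and 47.7%, and at 26.2% and 24.4%. Among 51 named regions none reversed in 704 refits, but 29 of them had been chosen by replicates that did not overlap. In 26 a call was lost, 23 of them on leaving out a library and the others at Mrc1 and Tlr3, and in 17 a region passed that had not before. The causes were not tested.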
